A study of Astyanax mexicanus with 6 samples.

Results

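Triglyceride synthesis and lipid droplet genes were compared between 2 liver-derived cell lines of the Mexican tetra, Astyanax mexicanus. The list held 10 gene symbols, plin2, plin3, cidec, dgat1a, dgat1b, dgat2, bscl2, fitm2, lpin1 and lpin2, chosen by name. Earlier results of these data were known when the list was chosen. Rows carrying 9 of these symbols were analysed. lpin2 has a second row, spelled LPIN2, so that 10 of the 27420 rows of the table were members. plin3 was not analysed here. SFL was derived from livers of surface fish and CFL from livers of Pachón cavefish, both from fish about 150 days old. The Pachón fish, but not the surface fish, had been starved before dissection. Both lines grew in a medium with fetal bovine and trout serum, bovine insulin and mouse epidermal growth factor. The lines are clonal populations, and 3 bulk RNA-seq libraries of each were measured. Cells of SFL were harvested at passage 45 (replicate 1) and 46 (replicates 2 and 3), those of CFL at passage 50 (replicate 1) and 51 (replicates 2 and 3). Line, fish and passage cannot be told apart in this design. No source says that the libraries of a line came from separate cultures, so that p-values measure only the spread between these libraries, which may be technical.

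Triglyceride is built on a glycerol backbone by stepwise addition of acyl chains. Lysophosphatidate and then phosphatidate are formed first, lipins remove the phosphate to give diacylglycerol, and the DGAT enzymes add the last chain. The product collects between the leaflets of the endoplasmic reticulum membrane and buds into the cytosol as a lipid droplet, with the help of seipin (bscl2) and the FIT proteins. Perilipins then coat the droplet and limit access of lipases, and CIDE proteins let droplets exchange lipid and grow. In mammals, liver and adipose tissue hold most of this pathway's activity, and droplet number rises with fat load.

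Expression was given as TPM, transcript abundance scaled to 1000000 per library and divided by transcript length, so that levels of different genes can be compared. TPM carry no read depth, so that values come without a counting error. Per library, 13254 to 13721 genes reached 1 TPM. In bulk RNA, fewer cells that express a gene and less RNA per cell cannot be told apart. The label as liver was checked against 18 rows of hepatocyte markers. Of these rows, 9 stayed below 1 TPM in all 6 libraries, among them ttr (transthyretin, listed at 0 throughout), hnf4a (at most 0.04 TPM) and fabp10a (listed at 0 except for 0.2 TPM in SFL replicate 3). Other rows were expressed in SFL, such as rbp4 (48.6 to 110 TPM in SFL and 0.2 to 0.38 TPM in CFL), a1cf (6.35 to 20.6 TPM in SFL and 2.41 to 2.86 TPM in CFL) and tfa (2.86 to 14.6 TPM in SFL and 0.05 to 0.26 TPM in CFL). Of 13 tested rows, 7 were called higher in SFL and 1 higher in CFL, against 11.7% and 8.88% of all tested genes. Among the called rows, fgb, apoa1a and apoa2 reached 0.2 TPM, the minimum set for testing, in SFL only, and tat in CFL only. The direction of these calls was thus partly fixed by that minimum. Summed over the list, the SFL libraries held 78.5 to 147 TPM, most of it rbp4, and the CFL libraries 5.47 to 6.65 TPM. With this mixed picture the lines are called by their names. Of 9 symbols listed as adipocyte markers, 3 were matched. The adiponectin gene adipoqb reached at most 0.08 TPM in any library. The 2 tested rows, the leptin genes lepa and lepb, were both called higher in CFL, against 8.88% of all tested genes. lepa was at 157 to 194 TPM in CFL and 0.17 to 0.46 TPM in SFL. lepb was at 97.3 to 189 TPM in CFL and 5.68 to 36.5 TPM in SFL. Whether leptin marks adipocytes in this fish was not tested.

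The coat and fusion genes of the droplet surface were the most abundant members in SFL. plin2 (ENSAMXG00000002544), which encodes the perilipin found on droplets of most cell types, was at 448, 209 and 46.8 TPM in SFL replicates 1, 2 and 3, against 31.8, 30.1 and 62.2 TPM in CFL replicates 1, 2 and 3. SFL replicates 1 and 2 lay above every CFL library, but SFL replicate 3 lay below CFL replicate 3, so that the lines overlapped. The means were 235 ± 202 TPM in SFL and 41.4 ± 18.1 TPM in CFL (SD, n = 3 each). The log2 fold change, here and below SFL over CFL of TPM + 1, was 2.04 (SE 0.78, 95% interval 0.17 to 3.91). Its adjusted p of 0.0855 (limma, Benjamini-Hochberg over all tested genes) did not pass the threshold of 0.05. Without SFL replicate 3 the fold change reached 2.94 on the log2 scale (limma adjusted p = 0.00545, with a range of 0.00545 to 0.351 over 15 alternatives), and this was the only alternative in which plin2 passed. Without SFL replicate 1 the log2 value was 1.32, and with the later passages alone it was 1.18.

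cidec (ENSAMXG00000033496) encodes a protein at droplet contact sites that transfers lipid from smaller to larger droplets, and in mice it is a marker of white fat and of fatty liver. It was at 434, 199 and 38.8 TPM in SFL replicates 1, 2 and 3, against 7.62, 13.99 and 9.24 TPM in CFL. Every SFL library was above every CFL library. The mean was 224 ± 199 TPM in SFL and 10.3 ± 3.31 TPM in CFL (SD, n = 3 each). Its log2 fold change was 3.78 (SE 0.81, 95% interval 1.85 to 5.72, with an adjusted p of 0.0129 in limma). It was called higher in SFL. A call required a limma adjusted p below 0.05 together with at least a 2-fold difference. With single libraries left out the log2 fold change ranged from 3.02 (without SFL replicate 1) to 4.75 (without SFL replicate 3). The call was lost without CFL replicate 1 (3.61, limma adjusted p = 0.0527, with a range of 0.000786 to 0.0816 over 15 alternatives). It was also lost with the later passages alone (2.85, limma adjusted p = 0.0816) and without the filter on low TPM (limma adjusted p = 0.0555).

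**Figure D1:**
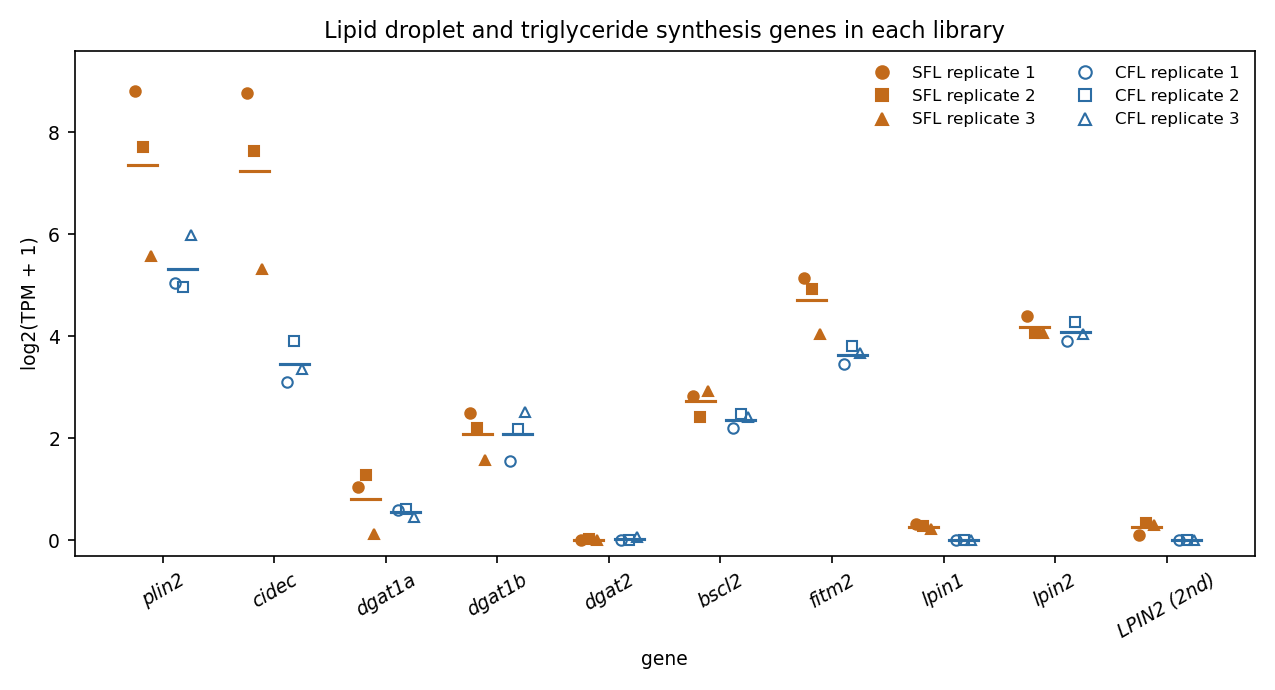
Level of each member in each library as log2(TPM + 1), with SFL (filled) left of CFL (open), a different symbol for each replicate and a bar at the line mean. plin2 and cidec spread widest in SFL, where replicate 3 sits at 46.8 and 38.8 TPM against 448 and 434 TPM in replicate 1, while lpin2 lies between 14.0 and 20.2 TPM in all 6 libraries.

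plin2 and cidec varied together within SFL. From SFL replicate 1 to replicate 2 the level differed 2.15-fold for plin2 and 2.19-fold for cidec, and from replicate 2 to replicate 3, at the same passage, 4.46-fold and 5.12-fold. The TPM of cidec divided by that of plin2 was accordingly 0.97, 0.95 and 0.83 in SFL replicates 1, 2 and 3, against 0.24, 0.47 and 0.15 in CFL replicates 1, 2 and 3. This ratio was formed after the values were seen and was not tested. In SFL the droplet coat gene and the droplet fusion gene were thus nearly equal in abundance at a high and at a low level, whereas cidec stayed below plin2 in CFL. In CFL the highest plin2 library, replicate 3, was not the highest for cidec. The 2 genes made up 93.0%, 88.0% and 68.0% of the TPM of all members in SFL replicates 1, 2 and 3, against 56.8%, 52.3% and 66.0% in CFL. The summed TPM of the other 8 rows differed less, at 66.7, 55.3 and 40.2 TPM in SFL and 29.97, 40.2 and 36.8 TPM in CFL.

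**Figure D2:**
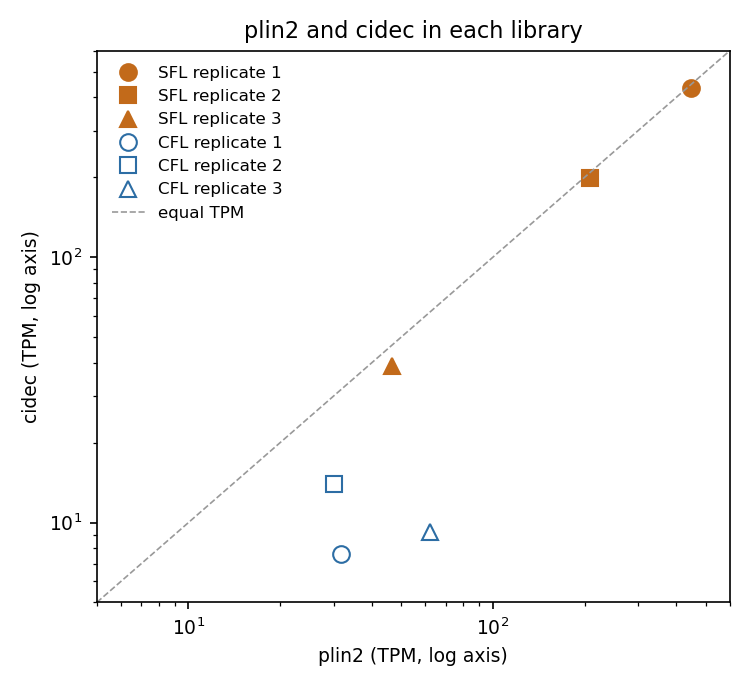
TPM of cidec (vertical, log axis) against TPM of plin2 (horizontal, log axis), one point per library, with filled symbols for SFL, open symbols for CFL and a dashed line at equal TPM. The 3 SFL libraries lie just under the line of equal TPM from 46.8 to 448 TPM of plin2, and the 3 CFL libraries lie well below it.

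The spread of both genes was wide for the line. Among the 7548 genes with a mean of at least 10 TPM in SFL, the highest library exceeded the lowest by a median of 1.60-fold. For plin2 the figure was 9.58-fold, and 2.03% of these genes spread as widely. For cidec it was 11.2-fold, and 1.72% spread as widely. In CFL, 7.35% of 7147 genes at that level spread as widely as plin2 (2.07-fold) and 11.4% as widely as cidec (1.84-fold). By rank among all rows of a library, plin2 stood at 313, 645 and 2497 in SFL replicates 1, 2 and 3, against 3158, 3351 and 1769 in CFL. cidec stood at 319, 680 and 2917 in SFL, against 8123, 5856 and 7304 in CFL.

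Of the genes that act while a droplet forms, fitm2 was called and bscl2 was not. fitm2 (ENSAMXG00000031336) encodes an endoplasmic reticulum protein needed for droplets to bud towards the cytosol. Its level was 34.4, 29.6 and 15.5 TPM in SFL replicates 1, 2 and 3, against 9.91, 13.0 and 11.7 TPM in CFL. The lines did not overlap, and as for plin2 and cidec the lowest SFL library was replicate 3. The log2 fold change was 1.07 (SE 0.31, 95% interval 0.33 to 1.80, with an adjusted p of 0.0369 in limma), close to the fold threshold. The call was lost in 10 of 15 alternatives, with limma adjusted p from 0.00318 to 0.220 over all of them. Among these were the fits without SFL replicate 1 (log2 fold change 0.85, limma adjusted p = 0.0900), SFL replicate 2 (0.95, limma adjusted p = 0.101), CFL replicate 1 (0.97, limma adjusted p = 0.119), CFL replicate 2 (1.15, limma adjusted p = 0.0873) and CFL replicate 3 (1.08, limma adjusted p = 0.0916). Under median-ratio scaling the log2 fold change was 0.96 and under quantile normalization 0.92. bscl2 (ENSAMXG00000007350), the gene of seipin, which holds the contact between the endoplasmic reticulum and the growing droplet, was at 6.08, 4.37 and 6.58 TPM in SFL and 3.61, 4.57 and 4.34 TPM in CFL. The lines overlapped through SFL replicate 2. Its log2 fold change was 0.36 (SE 0.21, 95% interval -0.13 to 0.85, with an adjusted p of 0.217 in limma).

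Of the lipin genes, lpin2 was the most abundant in both lines. Lipins are phosphatidate phosphatases, and in mammals they also act as transcriptional coactivators. lpin2 (ENSAMXG00000018088) was at 20.2, 15.8 and 15.7 TPM in SFL and 14.0, 18.6 and 15.5 TPM in CFL, and its interval for the log2 fold change was -0.36 to 0.55. Changes of 2-fold in either direction lay outside that interval. The other lipin rows were near the bottom of the table. lpin1 (ENSAMXG00000019159) was at 0.24, 0.21 and 0.17 TPM in SFL and listed at 0 in all 3 CFL libraries. The second row, LPIN2 (ENSAMXG00000031472), was at 0.08, 0.27 and 0.23 TPM in SFL and also listed at 0 throughout CFL. Neither was called with a pseudocount of 1, and both were with a pseudocount of 0.1, so that their calls rest on how values below 0.3 TPM are treated. How the authors' estimate divided reads between the rows of the lipin family is not known.

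The DGAT genes, listed for the last step of triglyceride synthesis, had low expression in both lines. dgat1b (ENSAMXG00000037012) was the highest of the diacylglycerol acyltransferase genes, at 4.67, 3.63 and 1.96 TPM in SFL and 1.93, 3.54 and 4.74 TPM in CFL. The lines overlapped over their whole range, and the log2 fold change was 0.01 (SE 0.34, 95% interval -0.80 to 0.82, with an adjusted p of 0.987 in limma). dgat1a (ENSAMXG00000033776), its paralog, was at 1.07, 1.43 and 0.09 TPM in SFL and 0.51, 0.52 and 0.37 TPM in CFL, with a log2 fold change of 0.27 (SE 0.29, with an adjusted p of 0.498 in limma). In SFL replicate 3 dgat1a was below every CFL library, whereas SFL replicates 1 and 2 were above every CFL library. dgat2 (ENSAMXG00000043250), which is unrelated in sequence to DGAT1 and in mice supplies most of the triglyceride of liver and fat, was at or below 0.02 TPM in SFL and at or below 0.05 TPM in CFL. It did not pass the filter on low TPM and was not tested.

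By median level, the order in SFL was plin2, cidec, fitm2, lpin2, bscl2, dgat1b and dgat1a, followed by rows below 0.3 TPM. Neighbours whose ranges overlapped were plin2 and cidec, fitm2 and lpin2, and bscl2 and dgat1b. Within each SFL library, however, plin2 was above cidec and bscl2 above dgat1b. fitm2 was above lpin2 in SFL replicates 1 and 2 but not in replicate 3 (15.46 against 15.74 TPM). In CFL the order was plin2, lpin2, fitm2, cidec, bscl2, dgat1b and dgat1a. Here fitm2 overlapped with cidec and bscl2 with dgat1b, and plin2 lay above lpin2 without overlap. cidec thus stood next to plin2 in SFL. In CFL it was behind lpin2 in each library. It was behind fitm2 there by median, but above fitm2 in CFL replicate 2 (13.99 against 13.01 TPM).

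Of the 10 rows, 9 reached 0.2 TPM in 1 or more libraries, the minimum set for testing. lpin1 and LPIN2 passed it through SFL only, so that their difference was partly fixed by the filter. The call higher in SFL was made for 2 rows, cidec and fitm2, and over all 18489 tested genes it was made for 11.7%. No row was called higher in CFL, where the share over all tested genes was 8.88%. Calls in either direction thus covered 2 of 9 rows, against 20.6% of all tested genes. At an unadjusted limma p under 0.05, 5 rows had a positive and 0 a negative log2 fold change, against 4800 and 3790 of all 18489 tested genes. lpin1 and LPIN2 were among the 5. Without CFL replicate 1 the calls higher in SFL numbered 0, and without SFL replicate 3 they numbered 3, with plin2 added. The SFL libraries lay entirely above the CFL libraries in 4 rows (cidec, fitm2, lpin1 and LPIN2), as they did for 29.8% of all tested genes. In no row did the CFL libraries lie entirely above SFL, against 23.1% of all tested genes, and lines without overlap in either direction were found for 4 of 9 rows, against 53% of all tested genes. Over the 9 rows the log2 fold changes had a median of 0.27, compared with 0.07 for all tested genes. The row at that median was lpin1, which passed the filter through SFL only, so that the median rests partly on the filter.

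The other genes of triglyceride and droplet metabolism were described from a list of 56 symbols, also chosen with earlier results of these data known. Of the symbols, 39 were matched to 42 rows, and 33 rows were tested. Of these, 10 were called higher in SFL and 1 higher in CFL, against the 11.7% and 8.88% given above. Through SFL alone 4 of the 33 rows passed the filter (acsl3a, mgll, fitm1l and apoba), and through CFL alone 1 row (mogat2). The differences of these rows were thus partly fixed by the filter. The median log2 fold change was 0.68, against 0.07 over all tested genes.

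At the first acylation steps, the gpat4 row of ENSAMXG00000020609, a glycerol-3-phosphate acyltransferase of the endoplasmic reticulum, was at 8.34, 9.08 and 9.84 TPM in SFL and 3.93, 3.97 and 3.52 TPM in CFL. The libraries of each line were close together and the lines far apart (log2 fold change 1.07, SE 0.17, with an adjusted p of 0.00394 in limma). The call was lost under both scalings, where the log2 fold change of this row was 0.98. A second row, GPAT4 (ENSAMXG00000001213), was at 7.63 ± 2.07 TPM in SFL and 5.27 ± 0.55 TPM in CFL (SD, n = 3 each) and was not called. The mitochondrial enzyme gene gpam was at 11.3 ± 1.76 TPM in SFL and 15.6 ± 2.17 TPM in CFL (SD, n = 3 each) and was not called either. agpat2 (ENSAMXG00000030286) encodes the lysophosphatidate acyltransferase whose loss causes lipodystrophy in humans. It was at 8.12, 5.45 and 2.93 TPM in SFL and 0.81, 1.40 and 1.51 TPM in CFL, without overlap. Its log2 fold change was 1.47 (SE 0.33, with an adjusted p of 0.0149 in limma). The call was lost in 4 of 15 alternatives, among them without CFL replicate 1 (1.32, limma adjusted p = 0.0611) and without CFL replicate 2 (1.53, limma adjusted p = 0.0510), in a range of 0.00365 to 0.0896 over 15 alternatives. agpat5, an enzyme of the same family, was lower in SFL, at 2.74 ± 0.79 TPM against 6.26 ± 1.19 TPM in CFL (SD, n = 3 each). Its limma adjusted p was 0.0181, but its log2 fold change of -0.96 stayed under the fold threshold.

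Acyl chains enter the pathway as acyl-CoA. Of 6 tested rows of long-chain acyl-CoA synthetase genes on the list, 1 was called higher in SFL and 1 higher in CFL. The shares over all tested genes were 11.7% and 8.88%. acsl2, of the same family, was not on the list and is described below. acsl3a (ENSAMXG00000016188) was at 23.97, 27.8 and 9.19 TPM in SFL, against 0.02 and 0.05 TPM in CFL replicates 2 and 3 and a value listed at 0 in CFL replicate 1. In mammalian cells ACSL3 sits on nascent droplets and is needed for their growth. The log2 fold change of acsl3a was 4.25 (SE 0.39, with an adjusted p of 0.000466 in limma), larger than that of any member, and the call held in all 15 alternatives. As acsl3a passed the filter through SFL only, its direction was partly fixed in advance. The paralog acsl3b was at 16.8 ± 2.62 TPM in SFL and 27.4 ± 3.19 TPM in CFL (SD, n = 3 each), with a log2 fold change of -0.68 (SE 0.19, with an adjusted p of 0.0313 in limma), under the fold threshold. acsl4a (ENSAMXG00000005608), whose mammalian counterpart prefers arachidonate, was the gene of the list called higher in CFL. It was at 474, 363 and 220 TPM in SFL and 835, 1195 and 1276 TPM in CFL, a log2 fold change of -1.69 (SE 0.32, with an adjusted p of 0.00804 in limma) that also held in all 15 alternatives. Monoacylglycerol acyltransferases offer another route to diacylglycerol. Among them mogat3a (ENSAMXG00000036252) was at 19.7, 27.1 and 2.18 TPM in SFL and 0.48, 1.20 and 1.05 TPM in CFL, and was called higher in SFL (log2 fold change 2.7, SE 0.78, with an adjusted p of 0.0364 in limma). The mogat3a call was lost in 7 of 15 alternatives, in a range of 0.000416 to 0.222. These included the fits without SFL replicate 1 (2.33, limma adjusted p = 0.0957), SFL replicate 2 (2.11, limma adjusted p = 0.0971), CFL replicate 1 (2.53, limma adjusted p = 0.114), CFL replicate 2 (2.82, limma adjusted p = 0.0923) and CFL replicate 3 (2.76, limma adjusted p = 0.0898).

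Lipolysis genes, which act on the finished droplet, held 5 of the 10 calls higher in SFL. All were among 7 tested rows, where 11.7% of all tested genes were called so. This list was chosen with earlier results of these data known. From the same series the authors had reported lipid catabolic genes, lipeb among them, as upregulated in SFL. The share is thus descriptive. In 6 of the 7 rows every SFL library was above every CFL library, as for 29.8% of all tested genes, and the exception was lipea. pnpla2 (ENSAMXG00000037594), the gene of adipose triglyceride lipase, which removes the first chain, was at 3.70, 5.33 and 5.12 TPM in SFL and 0.73, 0.88 and 0.48 TPM in CFL (log2 fold change 1.75, SE 0.19, with an adjusted p of 0.000919 in limma). mgll (ENSAMXG00000039283), which removes the last chain, was at 2.34, 2.58 and 7.87 TPM in SFL and 0.04, 0.07 and 0.04 TPM in CFL (2.17, SE 0.37, with an adjusted p of 0.00534 in limma). Both calls held in all 15 alternatives, but mgll passed the filter through SFL only, so that its direction was partly fixed in advance. Unlike plin2 and cidec, neither of these lipase genes was lowest in SFL replicate 3. ddhd2 (ENSAMXG00000020540), a triglyceride hydrolase known from mouse brain, was at 42.4, 11.8 and 13.8 TPM in SFL and 3.43, 3.81 and 3.85 TPM in CFL. Its log2 fold change was 2.11 (SE 0.46, with an adjusted p of 0.0132 in limma). The call was lost in 2 of 15 alternatives, and leaving out CFL replicate 1 gave 2.06 (limma adjusted p = 0.0513, with a range of 0.00343 to 0.0513 over the alternatives). pnpla3 and lipeb were the remaining calls. pnpla3 was at 30.3, 11.25 and 11.35 TPM in SFL and 1.02, 1.16 and 1.26 TPM in CFL (log2 fold change 2.97, SE 0.38, limma adjusted p = 0.00178). lipeb was at 20.98, 12.35 and 16.85 TPM in SFL and 4.68, 5.05 and 7.45 TPM in CFL (1.39, SE 0.26, limma adjusted p = 0.00776). The pnpla3 call held in all 15 alternatives, and that of lipeb was lost with the later passages alone. ABHD5, the coactivator of adipose triglyceride lipase, was at 3.08 ± 0.95 TPM in SFL and 1.72 ± 0.29 TPM in CFL (SD, n = 3 each) and was not called.

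Among other droplet proteins, ldah (ENSAMXG00000013253), the gene of a droplet-associated hydrolase, varied little within either line. It was at 19.5, 17.8 and 19.5 TPM in SFL and 5.87, 5.08 and 5.64 TPM in CFL (log2 fold change 1.61, SE 0.16, with an adjusted p of 0.00065 in limma), and the call held in all 15 alternatives. rab18b, a small GTPase found on droplets, was at 157 ± 16.8 TPM in SFL and 91.8 ± 12.7 TPM in CFL (SD, n = 3 each), and aup1 was at 26.4 ± 0.80 TPM in SFL and 45.9 ± 3.91 TPM in CFL (SD, n = 3 each). Their limma adjusted p of 0.0163 and 0.00918 passed, with log2 fold changes of 0.77 and -0.77 under the fold threshold. Of the relatives of plin2 and cidec, plin6 was at most 0.01 TPM, cidea at most 0.15 TPM and cideb at most 0.19 TPM in any library, so that cidec was the only CIDE row above 0.2 TPM.

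**Figure D3:**
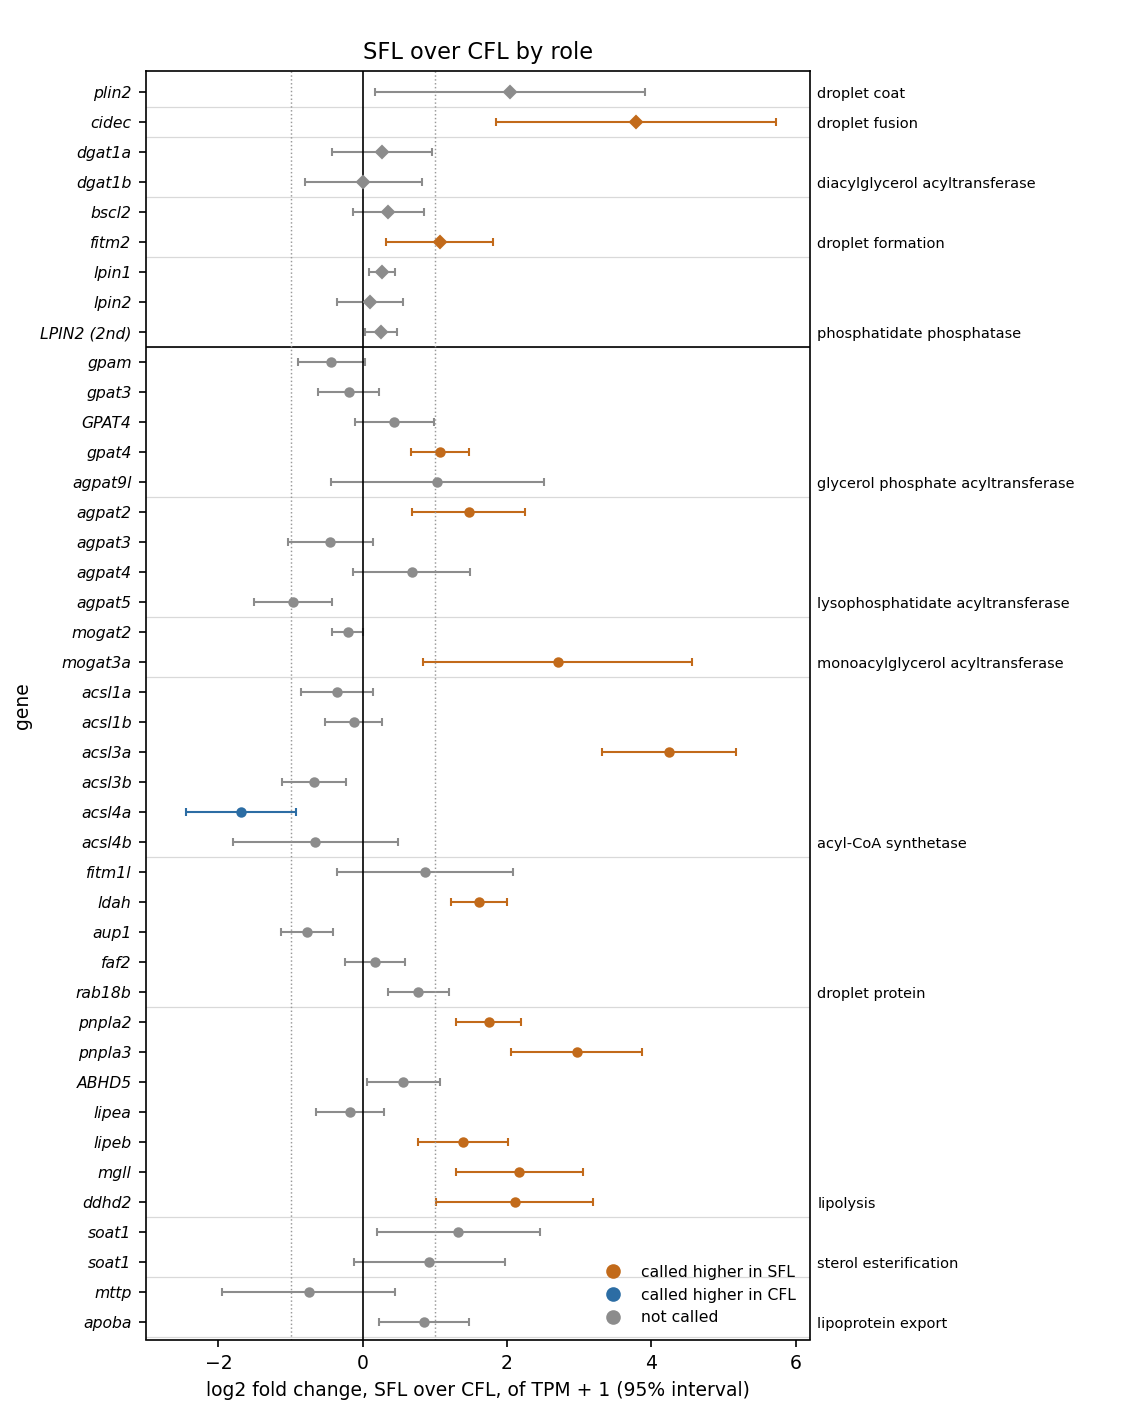
Log2 fold change of TPM + 1, SFL over CFL, with 95% intervals from limma (horizontal), for the 9 tested rows of the members (diamonds, above the black line) and the 33 tested rows of the other pathway genes (circles), grouped by role. Orange marks calls higher in SFL, blue the call higher in CFL and grey no call, and dotted lines mark a fold change of 2. cidec (3.78) and acsl3a (4.25) lie farthest to the right and acsl4a (-1.69) farthest to the left.

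The libraries of SFL differed in the members more than the line means show. Of the 6 members with a mean of at least 1 TPM in SFL, 5 were lowest in SFL replicate 3, as were 35% of 13798 genes at that level. The exception was bscl2, and lpin2 was nearly equal in SFL replicates 2 and 3 (15.77 and 15.74 TPM). Both plin2 and cidec in SFL replicate 3 were at under 50% of the next library, as were 5.08% of all genes. Among the other pathway genes at that level, 5 of 29 showed the same drop. These were agpat9l (12.1, 12.6 and 2.25 TPM in SFL replicates 1, 2 and 3), agpat4 (15.1, 11.9 and 5.71 TPM), mogat3a, acsl3a and mttp (49.5, 61.7 and 15.7 TPM), genes of acyl transfer, acyl activation and lipoprotein assembly. In CFL, 5 of the 6 members were lowest in replicate 1, as were 35.3% of genes, but none was under 50% of the next library there.

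Markers of other cell types also differed between the SFL libraries. The summed TPM of 9 fibroblast and stellate cell markers was 347, 828 and 1453 TPM in SFL replicates 1, 2 and 3, and 1294, 1288 and 665 TPM in CFL. In SFL the sum was lowest where plin2 and cidec were highest, and in CFL it was lowest in replicate 3, where plin2 but not cidec was highest. Most of the sum was the collagen genes col1a2 (106, 488 and 882 TPM in SFL) and col1a1a (194, 260 and 386 TPM in SFL). In SFL col1a1b, pdgfrb and acta2 also rose from replicate 1 to replicate 3. The order differed for dcn (13.7, 4.63 and 31.5 TPM) and pdgfra (1.47, 0.43 and 1.19 TPM). Over the list, 1 row was called higher in SFL and 2 in CFL of 7 tested, against 11.7% and 8.88% of all tested genes. In all, 2 rows, lum and hand2, stayed at or below 0.19 TPM. The call higher in SFL was the collagen gene col1a1a. The calls higher in CFL were the receptor genes pdgfra (0.43 to 1.47 TPM in SFL and 18.9 to 23.8 TPM in CFL) and pdgfrb (0.26 to 1.41 TPM in SFL and 8.95 to 13.3 TPM in CFL). Of 11 endothelial markers, 8 stayed below 1 TPM in all libraries, and the sum was 84.0, 113 and 245 TPM in SFL and 55.0, 66.2 and 75.0 TPM in CFL, with 0 calls among 3 tested rows. The rise of that sum in SFL came mostly from the receptor gene kdr. It was at 4.77, 36.3 and 154 TPM in SFL replicates 1, 2 and 3, in the opposite order to plin2 and cidec. tek had the same order as kdr, at 0.1, 0.36 and 1.06 TPM in SFL. kdrl varied little, at 79.0, 75.8 and 88.9 TPM in SFL. Of 7 tested rows of cholangiocyte markers, 4 (krt8, krt18a.1, krt18b and hnf1ba) were called higher in SFL and 3 (sox9a, hnf1bb and spp1) higher in CFL. The shares over all tested genes were 11.7% and 8.88%. hnf1ba (8.35 to 35.9 TPM in SFL and at most 0.01 TPM in CFL) passed the filter through SFL only, so that its direction was partly fixed. The sum over the cholangiocyte list was 6774, 6271 and 8214 TPM in SFL and 1708, 1707 and 1415 TPM in CFL. In SFL it was nearly all keratins of simple epithelia, and in CFL these were most of it. The rows called higher in CFL made up much of the rest there. They were hnf1bb (163 to 210 TPM in CFL and 2.29 to 12.3 TPM in SFL), sox9a (27.6 to 49.4 TPM and 0.63 to 0.81 TPM) and spp1 (6.14 to 29.3 TPM and 0.4 to 1.36 TPM). epcam and cftr stayed at or below 0.08 TPM. Leukocyte markers summed to at most 0.83 TPM in an SFL library and 1.72 TPM in a CFL library. The part of any of these in the levels of plin2 and cidec was not tested.

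**Figure D4:**
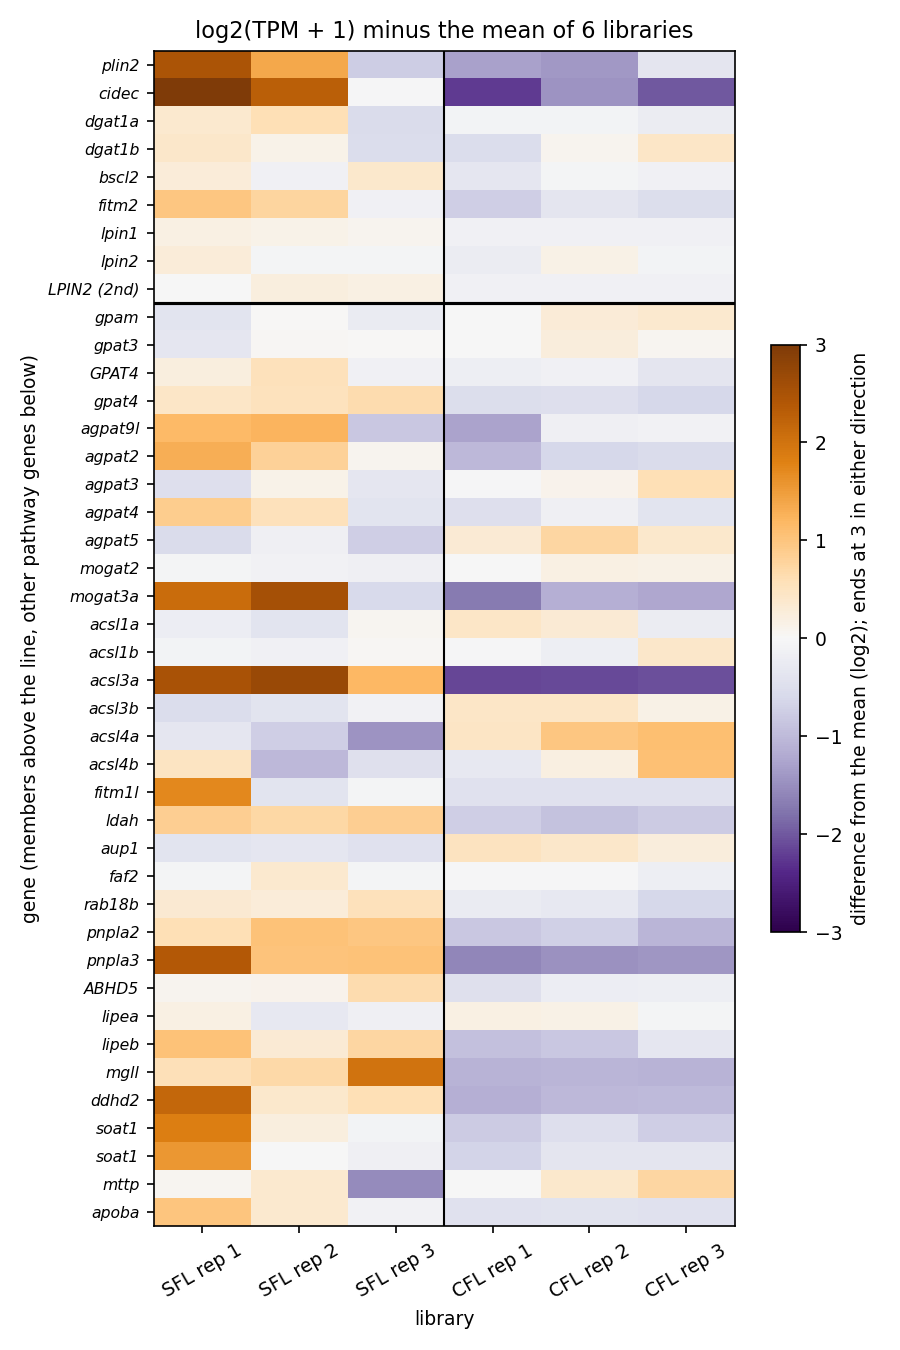
Log2(TPM + 1) of each tested row in each library minus its mean over 6 libraries (colour, orange above and purple below the mean), with SFL left and CFL right of the vertical line and the members above the horizontal line. plin2, cidec, agpat9l, mogat3a and mttp are lower in SFL replicate 3 than in SFL replicates 1 and 2, while ldah, pnpla2 and gpat4 are alike in the 3 SFL libraries.

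Regulators and fatty acid synthesis genes were set beside the members as context. Of 7 tested regulator rows, 1 was called higher in SFL and 0 higher in CFL. Of 4 tested lipogenic rows, 1 was called higher in SFL and 1 higher in CFL. Over all tested genes the shares were 11.7% and 8.88%. The PPAR nuclear receptors, which bind fatty acids, control perilipin and CIDE genes in mammals. pparda was at 22.9, 22.1 and 14.9 TPM in SFL and 1.12, 0.72 and 1.34 TPM in CFL (log2 fold change 3.34, SE 0.24, with an adjusted p of 0.000156 in limma). Its paralog ppardb was at 10.99 ± 0.99 TPM in SFL and 6.77 ± 1.14 TPM in CFL (SD, n = 3 each) and stayed under the fold threshold (0.63, limma adjusted p = 0.0417). PPARG was at 63.5, 59.9 and 79.2 TPM in SFL replicates 1, 2 and 3, and at 32.4, 37.7 and 69.2 TPM in CFL. It was not called and was not lowest in the SFL library with the least plin2 and cidec. In CFL PPARG was highest in replicate 3, as was plin2 but not cidec. Also not called were srebf2, pparaa (at most 1.19 TPM), pparab (at most 2.66 TPM) and mlxipl (at most 0.22 TPM). srebf2 was at 61.4, 32.8 and 27.8 TPM in SFL replicates 1, 2 and 3, and at 29.7, 47.65 and 70.5 TPM in CFL. In SFL srebf2 had the order of plin2 and cidec, and in CFL it was highest in replicate 3, as was plin2. Whether any of these regulators acts on plin2 or cidec in these cells was not tested. All 4 lipogenic rows were highest among SFL libraries in replicate 1, the library with the most plin2 and cidec. fasn and elovl6 were at 628, 252 and 186 TPM and 248, 111 and 84.9 TPM in SFL replicates 1, 2 and 3. Their drop between replicates 2 and 3 was smaller than that of plin2 and cidec. The desaturase gene scd was at 2051, 263 and 185 TPM in SFL and 87.9, 218 and 239 TPM in CFL and was not called. scdb, at 264, 145 and 174 TPM in SFL and 368, 473 and 620 TPM in CFL, was higher in SFL replicate 3 than in replicate 2 and was called higher in CFL.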

How the data were processed

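RNA-seq libraries of SFL and CFL (3 each, grouped by sample title) were made with a stranded polyA kit and sequenced as single 75 base reads. The methods name adult tissues as the RNA source, but the sample descriptions carry line names and passages and were followed here. The authors aligned reads with STAR 2.7.3a to a UCSC genome whose assembly is not named, with Ensembl release 102 models. The authors deposited TPM, estimated for each gene with RSEM, so that depth is unknown and the authors' edgeR count test was not repeated. Without a named assembly, no coordinates or sequences are given.

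Genes reaching 0.2 TPM in 1 or more libraries were tested on log2(TPM + 1) with limma 3.58.1 (lmFit, eBayes with trend) in R 4.3.3, without a block. Adjusted p under 0.05 (Benjamini-Hochberg) and a fold change of 2 made a call. Fold changes on this scale understate low genes. This step was first tested on simulated data. Summaries used Python 3.11.15 with pandas 2.3.3 and numpy 2.4.6. Alternatives changed the pseudocount (0.1 or 0.5), the filter (none, or 1 TPM in 3 libraries), the scaling (median-ratio or quantile), the model (replicate block, or no trend) and the libraries (later passages alone, or 1 library left out). Named genes are all members, the called pathway genes, relatives of the members, and context genes. Members and lists were chosen with earlier results of these data known. Ratios of plin2 to plin3, dgat1 to dgat2 and lpin1 to lpin2 were planned and not formed, because plin3 was not analysed and dgat2 and lpin1 are listed at 0 in some libraries.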

Additional observations from a re-analysis of the deposited data

How the results depend on the processing

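Of the members, 2 were called higher in SFL in the fit described above. There were 4 with a pseudocount of 0.1 (lpin1 and LPIN2 added), 1 under median-ratio scaling, 1 under quantile normalization and 1 when replicate number was a block (cidec each time). The count was 0 without the filter (4 at an unadjusted limma p under 0.05) and 0 with the later passages alone (2 at an unadjusted p). Leaving out each library gave 0 to 3, with 0 only without CFL replicate 1 (3 at an unadjusted p) and 3 only without SFL replicate 3. No member was called higher in CFL in any of the 15 alternatives, nor at an unadjusted p. Pathway genes called higher in SFL went from 7 to 14. Those higher in CFL were 2, acsl4a and agpat5, with pseudocounts of 0.1 and 0.5 and under both scalings, and 1 to 2 with each library left out. Over all genes, calls higher in CFL were 1642, and with a pseudocount of 0.1 they were 2492. For lpin2 the log2 fold change was -0.00372 under median-ratio scaling, -0.046 under quantile normalization and -0.10 with the later passages alone, and -0.0153 to 0.20 with each library left out. That of dgat1b was -0.0702 under median-ratio scaling, -0.0685 under quantile normalization, -0.46 with the later passages alone, and -0.26 to 0.27 with each library left out. No cause was tested for these shifts. The scalings moved the median log2 fold change of all genes to -0.0020 and -0.019, against 0.07.

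Replicate numbers are shared by the lines, but deviations of same-numbered libraries from their line means correlated at -0.22, 0.08 and -0.07 across genes, so that the numbers were not taken to pair the samples. With the replicate block, all tested genes called were 2122 higher in SFL and 1634 higher in CFL, and cidec had a limma adjusted p of 0.0158, fitm2 of 0.0563 and plin2 of 0.114. Unknown depth limits values below 1 TPM most (dgat1a, dgat2, lpin1 and LPIN2).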

Other observations

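Some further genes of lipid storage and export belong to the pathway list above, and their values are given here. Sterol ester, the other neutral lipid of droplets, is made by acyl-CoA:cholesterol acyltransferases. A soat1 row (ENSAMXG00000013993) was at 6.54, 1.47 and 0.99 TPM in SFL replicates 1, 2 and 3, against 0.23, 0.50 and 0.27 TPM in CFL, and a second soat1 row (ENSAMXG00000039298) was at 3.72, 0.59 and 0.43 TPM in SFL, against 0.01, 0.24 and 0.25 TPM in CFL. Neither was called (limma adjusted p = 0.0709 and 0.146), and how reads were divided between the rows is not known. soat2 was listed at 0 in every library. For lipoprotein export, mttp was at 42.3 ± 23.9 TPM in SFL and 63.6 ± 16.9 TPM in CFL (SD, n = 3 each), without a call. apoba was at 0.91 ± 0.74 TPM in SFL (SD, n = 3) and 0.01 TPM or 0.02 TPM in the CFL libraries. It was not called either, as its log2 fold change of 0.85 stayed under the fold threshold (limma adjusted p = 0.0452). As apoba passed the filter through SFL only, its direction was partly fixed in advance.

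The next values were singled out after they were seen. bscl2l (ENSAMXG00000037290), which carries a seipin-like symbol, was at 30.9, 16.2 and 0.78 TPM in SFL replicates 1, 2 and 3, against 0.09, 1.1 and 3.89 TPM in CFL. The lines overlapped and it was not called (log2 fold change 2.15, SE 1.1, limma adjusted p = 0.171). Its highest library in each line was also the highest for plin2, SFL replicate 1 and CFL replicate 3, and its lowest SFL library was the lowest for plin2 and cidec. In CFL its highest library was not that of cidec, and its lowest, replicate 1, was not that of plin2. bscl2 itself showed no such spread, at 6.08, 4.37 and 6.58 TPM in SFL. acsl2 (ENSAMXG00000007279), another acyl-CoA synthetase gene, was at 0.95, 0.82 and 0.21 TPM in SFL, against 16.3 to 22.4 TPM in CFL (log2 fold change -3.65, SE 0.25, limma adjusted p = 0.000133). Within 1 gene family, acsl3a was thus nearly absent from CFL and acsl2 low in SFL.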
